A study of Mus musculus with 15 samples.

Results

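The change with lipid load that was common to microglia and to monocyte-derived macrophages (MDM) was followed in 14 of the 15 bulk RNA-seq libraries. These were the libraries with a partner of the same origin and title number that differed in lipid load, which gave 7 pairs, 4 of microglia and 3 of MDM. A non-lipid-laden MDM library of number 431 had no such partner and was not used. Of 14712 genes tested, 997 moved in the same direction in all 7 pairs, 520 up (3.53%) and 477 down (3.24%), and 504 of these also passed the test described below (3.43%). Those 504 genes are the subject of what follows.

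Each library held the RNA of macrophages that had been sorted out of a mouse brain tumour, measured as read counts per gene. All groups shared the genotype Ink4a/ArfKO, PDGFB: the tumours arise from Nestin-positive progenitors made to express PDGFB, and the deletion of Ink4a/Arf was carried by the lipid-laden and the non-lipid-laden groups alike. The groups were microglia without lipid load (n = 4), lipid-laden microglia (n = 4), MDM without lipid load (n = 3) and lipid-laden MDM (n = 3). The labels give no age, no stain or gate for lipid load and no statement on pooling of animals. The titles do not say that a number is an animal. The 7 pairs came from 4 numbers, so microglial and MDM pairs of 1 number may share an animal, and p-values measured only the spread between these samples.

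Microglia are the resident macrophages of the brain, and MDM arise from blood monocytes that enter the tissue. Both take up lipid from dying cells and myelin, break it down in lysosomes, and either export the cholesterol through sterol-regulated transporters or store it as esters in droplets coated by perilipins. Macrophages that carry much lipid are known in several tissues for a set of genes that includes Gpnmb, Spp1, Fabp5, Lpl and cathepsins.

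Total counts were 7842531 to 11419338 per library and did not differ between lipid-laden and other libraries beyond the spread over pairs (exact two-sided sign-flip permutation, p = 0.4219, adjusted over 3 measures 0.4219). The number of genes detected changed by -516 ± 796 with lipid load (SD over pairs, higher in 2 of 7 pairs, p = 0.1719 by the same exact test, adjusted p = 0.2579). Mitochondrially encoded RNA was a larger share with lipid load in 6 of 7 pairs, by 0.172 ± 0.138 percentage points (SD over pairs, p = 0.03125 by the same exact test, adjusted p = 0.09375, smallest possible p 0.015625). The labels were checked against markers of each cell type, as levels in CPM (a gene's count scaled by its library's size after TMM normalization) summed over a list. The 20 genes of homeostatic microglia summed to 16600 to 25600 CPM in microglia, 11200 to 27100 CPM in lipid-laden microglia, 4990 to 6610 CPM in MDM and 11200 to 16200 CPM in lipid-laden MDM. The 22 MDM markers summed to 1680 to 2590 and 2360 to 3250 CPM in the microglial groups, to 10300 to 10500 CPM in MDM and to 6940 to 8620 CPM in lipid-laden MDM. Dendritic cell markers, 12 genes, were at 1980 to 2950 CPM in MDM and at 287 to 356 CPM in lipid-laden MDM, against 209 to 277 and 234 to 301 CPM in microglia without and with lipid load. Progenitor and glioma cell markers, 16 genes, were at 18.3 to 32.4 CPM in MDM and at 94.1 to 190 CPM in lipid-laden MDM, while the microglial groups overlapped (162 to 512 and 220 to 586 CPM). The myelin and oligodendrocyte list stayed at 158 to 232 CPM in every library, and Mog was at 0 in all groups but lipid-laden MDM. So in MDM, lipid load went together with higher microglial and progenitor markers and lower MDM and dendritic cell markers, while in microglia the groups overlapped for all 4 lists, with MDM markers higher in each of the 4 pairs. Microglial number 221 had the lowest homeostatic markers in both groups and far more MHC class II RNA than other microglia, and counts without it are given in the closing section. Among the other marker lists, no gene of T and NK cells, astrocytes, endothelial cells, neurons or red blood cells was called, 1 of 6 neutrophil genes was called higher, and 1 of 6 B cell genes was called higher and 1 lower. Within the 504 genes stood 4 of the MDM markers, with Ccr2, Ms4a4c and Klrb1b lower and Lyz2 higher, and 2 of the dendritic cell markers, Ccr7 lower and Cadm1 higher. The part of this shift in the results below was not tested, and values within microglia are given beside the results they bear on.

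**Figure D1:**
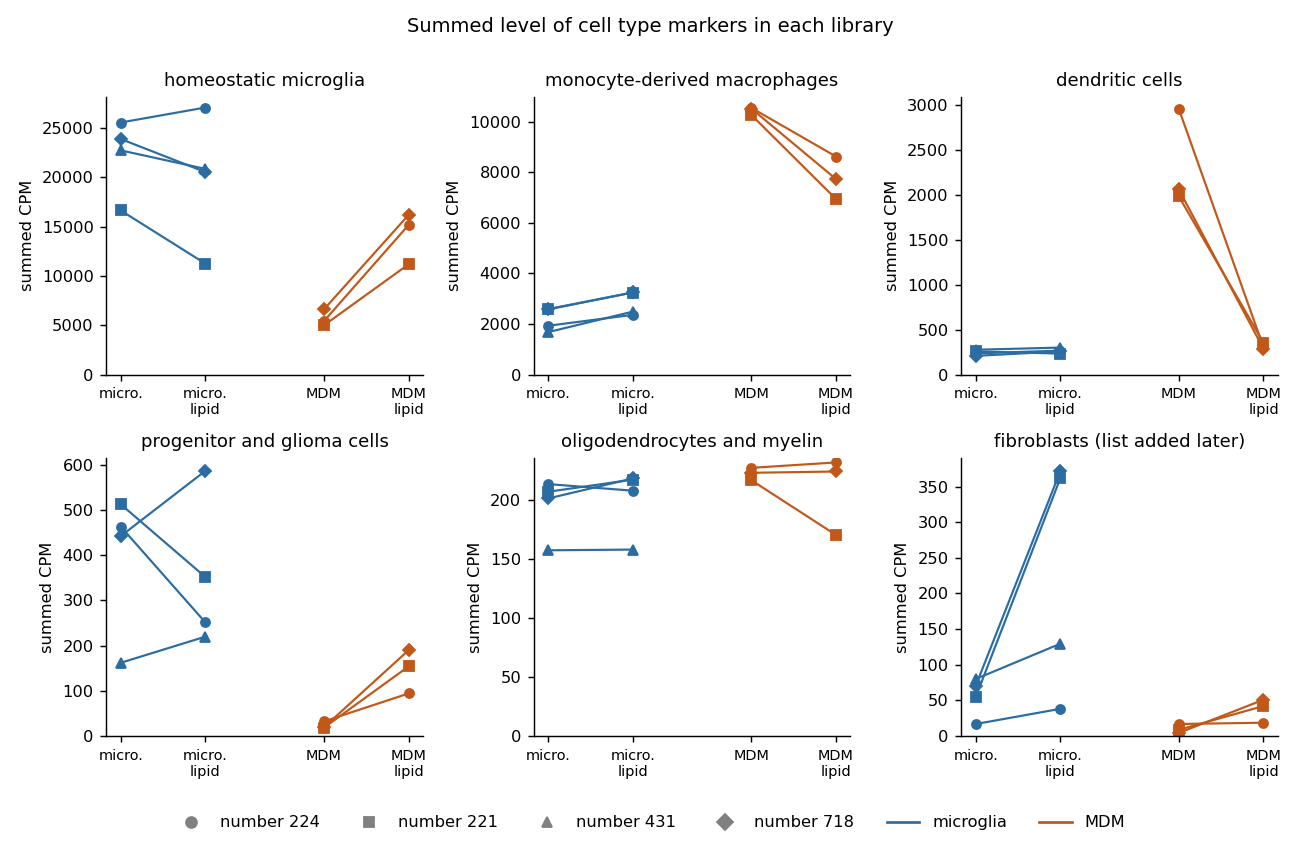
Summed level of the marker genes of 6 cell types (CPM, linear axis from 0) in each of the 14 libraries, with a line for each pair, microglia in blue and MDM in orange, and 1 symbol per number. Homeostatic microglia markers are higher and dendritic cell markers lower with lipid load in all 3 MDM pairs, while the 4 microglial pairs change little in the dendritic cell list.

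The shared effect was the mean of the microglial and the MDM log2 fold change, lipid-laden over non-lipid-laden, with 1 block per pair. It was tested with edgeR's quasi-likelihood test over all 14712 genes and called at a Benjamini-Hochberg adjusted p under 0.05. Of all genes tested, 1128 were called (7.67%), 688 higher (4.68%) and 440 lower (2.99%) with lipid load. With the added condition of 1 direction in all 7 pairs, 293 were higher (1.99%) and 211 lower (1.43%). That condition uses the same differences as the test and is no further evidence. At the edge of the threshold, Elf1 was the last gene called (adjusted p = 0.0495) and Gm50012 the first left out (adjusted p = 0.0503). The median log2 fold change over all genes tested was 0.01. TMM normalization centres the bulk of genes near 0, so nothing is read from that median.

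The 293 higher genes had a median log2 fold change of 0.73, which was 0.52 in microglia and 0.91 in MDM, and 101 of them changed at least 2-fold. For the 211 lower genes the median was -0.70, with -0.57 in microglia and -0.81 in MDM, and 55 changed at least 2-fold. Nearly all were protein-coding genes, 292 of the higher and 206 of the lower ones (88.1% of all genes tested). They were also more abundant than most genes, with a median average log2 CPM of 6.60 and 6.72 against 4.20 over all genes tested. When each origin was tested by itself in the same fit, 165 genes were called in microglia (1.12%) and 1441 in MDM (9.79%). Of the 504 genes, 54 were called in each origin (28 higher and 26 lower), out of 60 genes called in each origin with the same sign over the whole table (0.408%). In 74 of the higher and 63 of the lower genes the lipid-laden and other libraries did not overlap in either origin. Of all genes tested, 92 were apart upward (0.625%) and 95 downward (0.646%), and since a gene without overlap has 1 direction in every pair by construction, nothing is read from these counts.

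The amount of change was not the same in both origins. The difference between the MDM and the microglial effect was called for 719 genes over the table (4.89%), and for 48 of the 293 higher and 14 of the 211 lower genes. In 47 of the 48 and 13 of the 14 the change was larger in MDM. In 141 of the higher genes the microglial log2 fold change stayed under 0.5. The median absolute log2 difference over the 504 genes was 0.49 to 0.56 in the microglial pairs and 0.82 to 0.90 in the MDM pairs. These genes were chosen from the same pair differences, so the likeness of pairs within an origin is no further evidence.

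**Figure D2:**
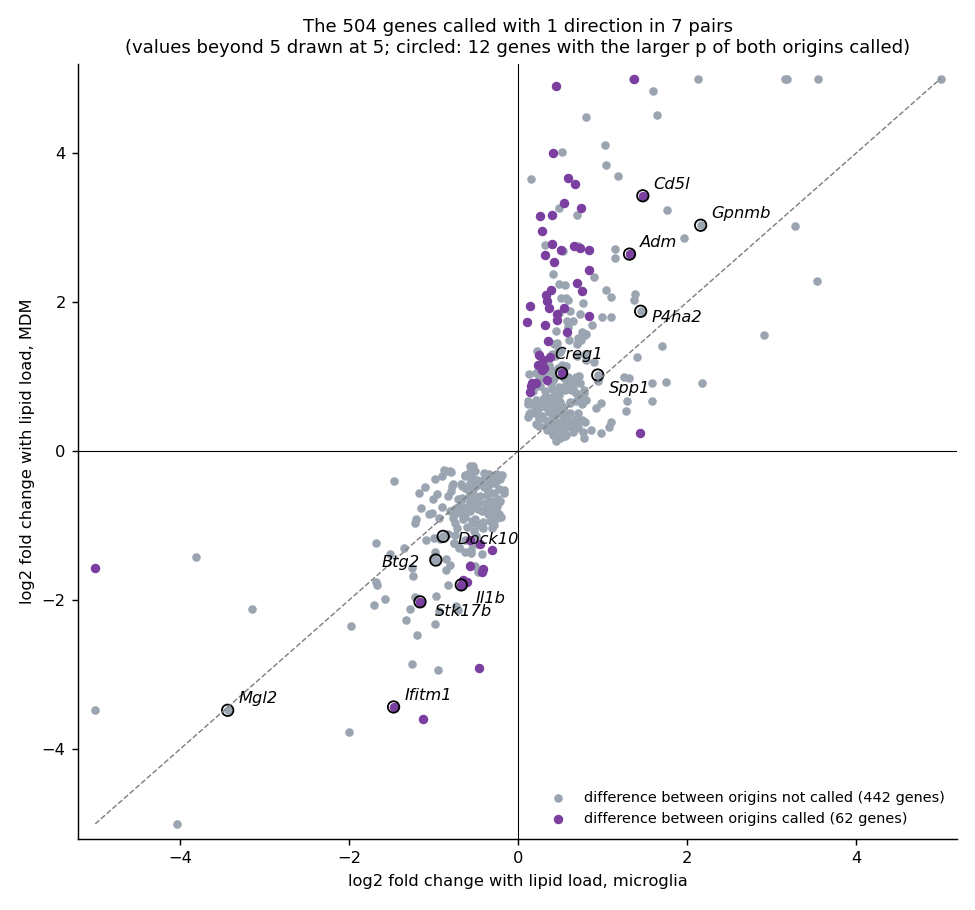
Log2 fold change with lipid load in microglia (x axis) and in MDM (y axis) for the 504 genes, with purple points for the 62 genes whose difference between origins was called and a dashed line of equal change. The 12 circled genes, from Mgl2 at the lower left to Gpnmb at the upper right, passed when the larger p of both origins was tested.

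A stricter question is which genes change in both origins rather than on average, and for this the larger of the 2 within-origin p-values was adjusted over all genes. Of 14 genes that passed, 12 had the same direction in all 7 pairs. Gpnmb, Spp1, P4ha2, Creg1, Adm and Cd5l rose, and Stk17b, Il1b, Btg2, Ifitm1, Dock10 and Mgl2 fell (adjusted p = 0.0359 to 0.0471). Cd209a and Dpp4, both on the dendritic cell list, passed without having 1 direction in every pair.

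**Figure D3:**
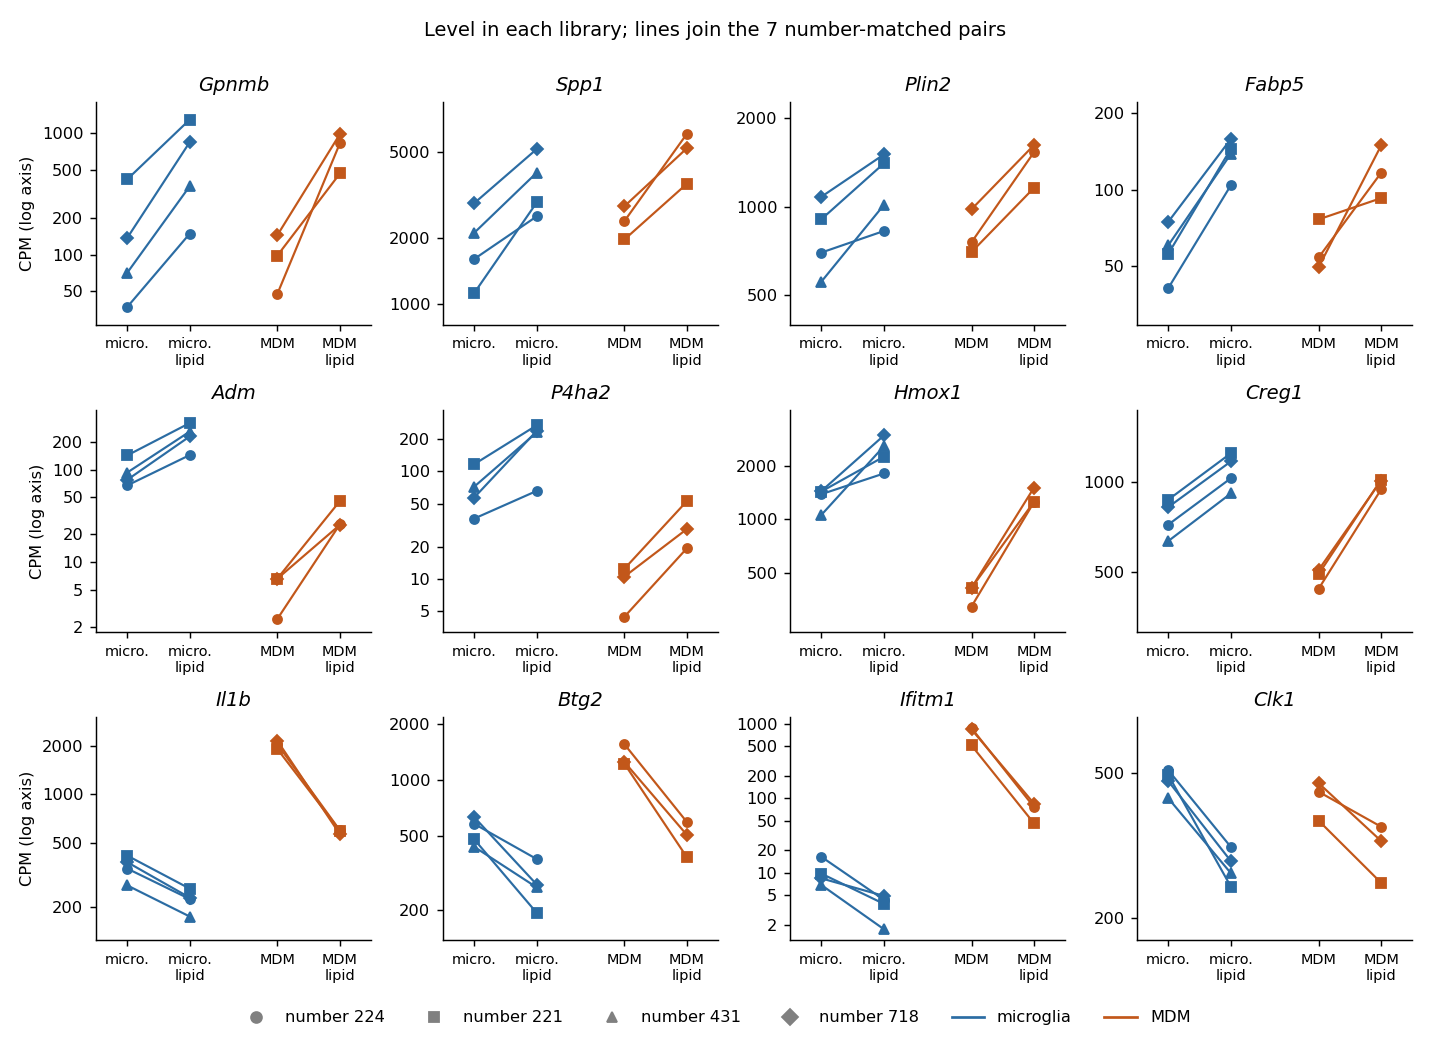
CPM (log axis) of 12 genes in each library, with a line for each of the 7 pairs, microglia in blue and MDM in orange, and 1 symbol per number. All lines of the first 8 genes rise and all lines of the last 4 fall, from starting levels that differ between the origins for Adm, P4ha2, Hmox1, Creg1, Il1b, Btg2 and Ifitm1.

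Of 26 genes of lipid-associated and disease-associated macrophages, 14 were called higher with the same direction in every pair and none lower, against 1.99% and 1.43% of all genes, and the list median was 0.69 (0.28 in microglia and 0.91 in MDM). Without the condition on pairs, 19 were called higher and 1 lower, against 4.68% and 2.99% of all genes. Counts of every list below stand against these same shares. The called genes were more abundant than most (values above), and the lists were not matched for level. Several of its genes also stand on the lipid, lysosome and growth factor lists described further on.

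Gpnmb, a transmembrane glycoprotein of phagocytes rich in lysosomes (ENSMUSG00000029816, chromosome 6, 49036546 to 49070929), was among the 12 largest increases. Values are given in the order of numbers 224, 221, 431 and 718 for microglia, and 224, 221 and 718 for MDM. In microglia Gpnmb was at 37.0, 418, 70.9 and 137 CPM without lipid load and at 149, 1302, 368 and 848 CPM with it. Its MDM levels lay at 47.5, 98.4 and 145 CPM without and at 831, 467 and 987 CPM with lipid load. The MDM groups did not overlap, while in microglia number 221 was high in both groups and made them overlap. Its log2 fold change was 2.60 (SE 0.21, adjusted p = 0.000139), with 2.16 in microglia and 3.03 in MDM.

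Spp1, the gene of the secreted protein osteopontin (ENSMUSG00000029304, chromosome 5, 104435118 to 104441050), was singled out after its values were seen. It changed by nearly the same amount in both origins. Its microglial levels were 1606, 1121, 2119 and 2898 CPM without and 2522, 2925, 4005 and 5140 CPM with lipid load. Its MDM levels were 2398, 1974 and 2805 CPM without and 6042, 3561 and 5185 CPM with lipid load. Each lipid-laden library lay above its partner, and the groups overlapped only in microglia, through number 718. Across both origins the log2 fold change was 0.98 (SE 0.09, adjusted p = 0.000297), 0.94 in microglia and 1.02 in MDM, and the difference between them was not called (adjusted p = 0.884).

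Other members of the list differed in how evenly they were shared. The galectin Lgals3 (0.84) had 1.44 in microglia and 0.24 in MDM, a difference that was called (adjusted p = 0.00782). Cst7, a cysteine protease inhibitor (1.15), Csf1, the macrophage growth factor (1.59), and Syngr1, a vesicle protein (1.22), leaned the other way, with 0.46, 0.40 and 0.34 in microglia and 1.84, 2.78 and 2.10 in MDM (adjusted p of the difference 0.00244, 0.00118 and 0.000709). The endosomal glycoprotein Cd68 was at 0.43 and 0.75, and its difference was not called (adjusted p = 0.156). Trem2, the lipid-sensing receptor, was called on average (0.68) but stood at 0.02 in microglia and did not keep 1 direction in all pairs.

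Lipid handling genes were taken up in the order of uptake, storage and export. Of 18 genes of uptake and fatty acid binding, 5 rose in all pairs and none fell. They were the scavenger receptors Msr1 (log2 fold change 0.91, with 1.28 in microglia and 0.54 in MDM) and Stab1 (0.96, with 0.47 and 1.45), the endocytic receptor Lrp1 (0.72, with 0.36 and 1.08), the lipoprotein lipase gene Lpl and the fatty acid carrier Fabp5. Lpl was at 1.77, with 0.84 in microglia, where it was not called (adjusted p = 0.0734), and 2.70 in MDM, and the difference was called (adjusted p = 0.00601). Of 11 genes of droplet coat and lipolysis, Plin2, Plin3 and Lipa rose, and of 19 genes of cholesterol efflux and the sterol receptor LXR, Abca1, Abcg1, Scd2 and Npc1 rose. The medians of these 3 lists were 0.67, 0.59 and 0.25, of which 0.40, 0.50 and 0.24 in microglia.

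Plin2, the perilipin that coats lipid droplets in macrophages (ENSMUSG00000028494, chromosome 4, 86648386 to 86670060), was at 698, 906, 557 and 1080 CPM in microglia and at 827, 1401, 1013 and 1502 CPM in lipid-laden microglia. It was at 757, 701 and 979 CPM in MDM and at 1530, 1158 and 1617 CPM in lipid-laden MDM. All 7 pairs rose, by 0.24 to 1.02 on the log2 scale, and only the microglial groups overlapped. This gave a log2 fold change of 0.69 (SE 0.08, adjusted p = 0.000892), 0.55 in microglia and 0.82 in MDM. Lipa, the lysosomal acid lipase that releases cholesterol and fatty acids, was at 0.71 (SE 0.08), 0.59 in microglia and 0.83 in MDM, with no overlap in either origin. Plin3, another droplet coat gene, was at 0.59 (0.76 in microglia and 0.43 in MDM), a call that was lost without the libraries of number 224 (adjusted p = 0.0713) or 718 (0.105).

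Fabp5 (ENSMUSG00000027533, chromosome 3, 10012548 to 10016607) was at 40.8, 55.8, 60.3 and 74.7 CPM in microglia and at 104, 145, 139 and 159 CPM in lipid-laden microglia. The MDM levels were 53.9, 76.2 and 49.3 CPM, and 117, 92.5 and 150 CPM with lipid load. The groups did not overlap in either origin. The fitted log2 fold change was 1.13 (SE 0.15, adjusted p = 0.00147), 1.25 in microglia and 1.00 in MDM.

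Abca1 and Abcg1, the transporters that move cholesterol out of macrophages, were called at 0.77 (SE 0.10) and 0.57 (SE 0.06), but the microglial values were 0.24 and 0.21 and the MDM values 1.29 and 0.92, with a called difference (adjusted p = 0.0162 and 0.0106). Npc1, which moves cholesterol out of lysosomes, was at 0.36 in microglia and 1.16 in MDM. Among the 23 genes of cholesterol synthesis, Insig1 and the squalene synthase gene Fdft1 fell (-0.64 and -1.08, of which -0.34 and -0.99 in microglia) and Insig2, which like Insig1 holds back the sterol-sensing factor SREBP, rose (0.80, with 0.66 in microglia). The Fdft1 call held in 4 of 11 fits that left out libraries, and that of Insig1 was lost without number 718 (adjusted p = 0.0579). These 11 hold the fit without number 431 again as the fit without microglial pair 431, which is the same fit. In the list of ester and triglyceride synthesis, with 13 genes, Agpat3 rose (1.05, with 0.15 in microglia) and Dgat2 fell (-1.22, with -1.43 in MDM, a call held in 6 of 11 such fits).

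**Figure D4:**
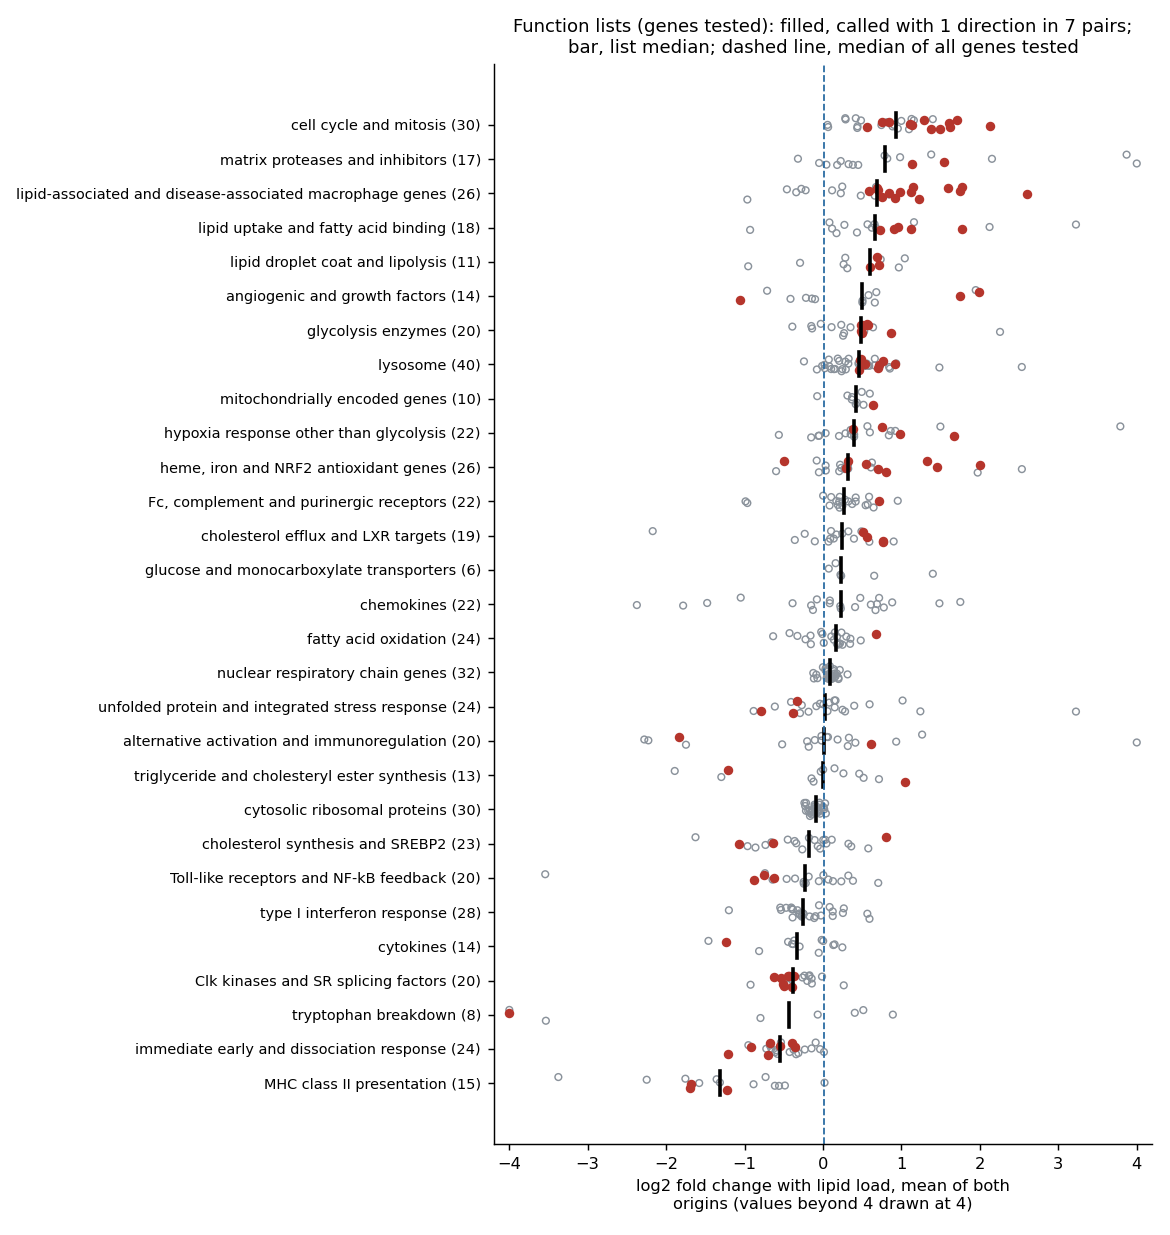
Log2 fold change with lipid load, mean of both origins (x axis), of every tested member of the 29 function lists, with filled points for genes called with 1 direction in all 7 pairs and a bar at the list median. Cell cycle and macrophage lipid lists lie to the right of the dashed median of all genes (0.01), and immediate early and MHC class II lists to its left.

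Of 20 glycolysis enzymes, 8 were called higher in all pairs, against 1.99% of all genes. They were Hk3, Pfkl, Aldoa, Tpi1, Gapdh, Pgk1, Pgam1 and Pkm (list median 0.49, with 0.66 in microglia and 0.30 in MDM). Without the condition on pairs, 11 were called higher and 1, Pfkp, lower (-0.39, adjusted p = 0.0491), and Pfkp was at 1.25 in microglia and -2.03 in MDM. In microglia 18 and in MDM 12 of the 20 had a positive log2 fold change. Pkm, the pyruvate kinase gene (ENSMUSG00000032294, chromosome 9, 59656368 to 59679375), was at 1418, 2134, 1874 and 1857 CPM in microglia and at 2131, 3024, 2973 and 3020 CPM in lipid-laden microglia. MDM libraries were at 1292, 1500 and 1419 CPM, and at 1697, 1849 and 1851 CPM with lipid load. Number 224 was lowest in each of the 4 groups, and the groups overlapped in microglia only. On average the log2 fold change was 0.49 (SE 0.05, adjusted p = 0.000564). The lactate dehydrogenase gene Ldha was called on average (0.23) but was at 0.65 in microglia and -0.18 in MDM.

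Of 22 other hypoxia-response genes, Egln3, Mif, P4ha2 and Plod1 rose in all pairs and none fell, and without the condition on pairs 8 were called higher and 14 were not called (median 0.40, with 0.82 in microglia and 0.30 in MDM). P4ha2, a subunit of the enzyme that hydroxylates prolines of collagen (ENSMUSG00000018906, chromosome 11, 54100095 to 54131665), was at 36.5, 117, 72.2 and 57.2 CPM in microglia and at 65.9, 268, 231 and 239 CPM in lipid-laden microglia. The MDM libraries were far lower, at 4.46, 12.5 and 10.5 CPM without and 19.4, 53.1 and 29.2 CPM with lipid load. Lipid-laden microglial library 224 lay within the range of the non-lipid-laden libraries, and the MDM groups did not overlap. The log2 fold change was 1.67 (SE 0.16, adjusted p = 0.000367), 1.45 in microglia and 1.88 in MDM.

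Adm encodes adrenomedullin, a peptide that widens vessels and is induced by low oxygen (ENSMUSG00000030790, chromosome 7, 110627661 to 110629820). Microglia held 67.3, 142, 92.8 and 77.4 CPM without and 143, 318, 257 and 228 CPM with lipid load. MDM held 2.43, 6.64 and 6.63 CPM without and 25.7, 45.8 and 25.3 CPM with lipid load. The groups did not overlap in either origin, although in microglia the lowest lipid-laden library (143 CPM) was close to the highest other library (142 CPM). Its log2 fold change was 1.98 (SE 0.16, adjusted p = 0.000139), 1.32 in microglia and 2.65 in MDM, with a called difference (adjusted p = 0.0389). Of 14 angiogenic and growth factors, Igf1 rose as well (1.74, with 1.38 in microglia), and Tgfb1 fell (-1.05, with -1.20 in microglia), a call lost without number 224 (adjusted p = 0.0852), without number 718 (0.0848) and without MDM pair 224 (0.0501).

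The bases just before the start of Adm and Plin2 are shown because both genes rose in all pairs and Adm is a known target of the hypoxia-inducible factors. They are the 150 bases up to the RefSeq start on build GRCm38.p6, 5′ to 3′ on the strand of the gene, at chr7:110627507-110627656 (+) and chr4:86670060-86670209 (-). Capitals mark the core of the hypoxia response element, searched as ACGTG and GCGTG on both strands (CACGC is GCGTG read on the other strand).
Adm: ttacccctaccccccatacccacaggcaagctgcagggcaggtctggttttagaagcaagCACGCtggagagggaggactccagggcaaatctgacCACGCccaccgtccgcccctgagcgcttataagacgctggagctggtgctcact
Plin2: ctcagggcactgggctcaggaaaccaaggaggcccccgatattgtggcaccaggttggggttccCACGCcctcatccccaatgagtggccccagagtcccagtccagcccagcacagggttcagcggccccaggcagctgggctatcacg
The core was found in the 250 bases upstream of 8 of 12 glycolysis and hypoxia genes that rose in all pairs (66.7%). It is a short motif, present in 55.3% of the 10845 tested genes with a RefSeq promoter and in 54.4% of the 237 higher genes with one, so its share among the higher genes was that of the background.

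Of 26 heme, iron and antioxidant genes, 8 were called higher in all pairs (Hmox1, Blvrb, Ftl1, Slc40a1, Slc11a1, Gclm, Txn1 and Prdx1) and 1 lower, Nfe2l2 (-0.49), which encodes the antioxidant regulator NRF2 itself. Over all genes the shares were 1.99% higher and 1.43% lower. Hmox1, the enzyme that opens heme (ENSMUSG00000005413, chromosome 8, 75093621 to 75100589), was at 1385, 1434, 1058 and 1442 CPM in microglia and at 1811, 2252, 2578 and 2965 CPM in lipid-laden microglia. Among MDM libraries it was at 323, 411 and 411 CPM, and at 1252, 1258 and 1509 CPM with lipid load. No library of 1 group reached into the other in either origin. Across both origins the log2 fold change was 1.33 (SE 0.10, adjusted p = 0.000119), 0.84 in microglia and 1.82 in MDM, with a called difference (adjusted p = 0.0234). Blvrb, the gene of biliverdin reductase B, was at 0.80 (SE 0.11), of which 0.66 in microglia. The iron exporter gene Slc40a1 was at 2.01 (SE 0.25), of which 0.74 in microglia and 3.27 in MDM. The heme transporter gene Slc48a1, singled out after its value was seen, rose by 1.01 (SE 0.11) with 0.80 and 1.22.

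Of 40 lysosome genes, 9 were called higher in all pairs and 22 without that condition, against 1.99% and 4.68% of all genes. None was called lower. The list median of 0.46 was 0.14 in microglia and 0.72 in MDM, and the difference between origins was called for 12 of the 40. The cathepsin genes Ctsb, Ctsd and Ctsa were at 0.70, 0.92 and 0.54, of which 0.24, 0.10 and 0.34 in microglia. The difference between origins was called for Ctsb and Ctsd (adjusted p = 0.00128 and 0.000832) and not for Ctsa (0.0790). Creg1, a lysosomal glycoprotein chosen after its value was seen (ENSMUSG00000040713, chromosome 1, 165763746 to 165775308), was more even. It was at 722, 875, 636 and 827 CPM in microglia and at 1032, 1252, 918 and 1175 CPM in lipid-laden microglia, and at 440, 493 and 509 CPM and 947, 1020 and 1014 CPM in the MDM groups. Neither origin had overlapping groups. This gave a log2 fold change of 0.78 (SE 0.06, adjusted p = 8.03e-05), 0.52 in microglia and 1.05 in MDM.

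Cell cycle and mitosis genes had the highest median of the function lists, 0.93 (0.42 in microglia and 1.58 in MDM). Of 30, 12 were called higher in all pairs and 21 without that condition, against 1.99% and 4.68% of all genes. None was called lower. Ccnb1, the cyclin that drives entry into mitosis (ENSMUSG00000041431, chromosome 13, 100778650 to 100786570), was at 71.6, 98.4, 106 and 80.0 CPM in microglia and at 123, 149, 180 and 115 CPM in lipid-laden microglia. In MDM it was at 7.10, 20.6 and 11.7 CPM, and at 56.0, 124 and 76.5 CPM with lipid load. The groups did not overlap in either origin. The fitted log2 fold change was 1.71 (SE 0.10, adjusted p = 3.64e-05), 0.66 in microglia and 2.75 in MDM, and the difference was called (adjusted p = 0.000625). Plk1, a mitotic kinase (1.62), and Birc5, an inhibitor of apoptosis that acts in mitosis (1.11), had 0.89 and 0.47 in microglia and 2.34 and 1.76 in MDM (adjusted p of the difference 0.0587 and 0.0132). In bulk samples, more cells of a kind and more RNA per cell cannot be told apart, and the same holds for every gene named here. Progenitor and glioma cell markers moved with these genes in MDM but not in microglia (values above), and their part was not tested.

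The largest increases by size were of collagen and matrix genes with low counts. Among the 12 largest stood Col5a2, Col1a1 and Col1a2, which encode collagen chains, Lox, an enzyme that cross-links collagen, Fkbp14, which helps fold it, and the proteoglycan gene Bgn. The others were Gpnmb, Cd5l, Sh3bgrl2, Cdk18, Syt4 and Htr2b. In microglia by themselves, Col1a1, Col1a2, Gpnmb and Cd5l were called. The rest of the 12 were not called there, and ran from 0.45 (Fkbp14) to 3.28 (Bgn). In MDM by themselves, Bgn, Sh3bgrl2 and Col1a2 were not called. Col1a1 (ENSMUSG00000001506, chromosome 11, 94936224 to 94953042) was at 0, 11.1, 2.56 and 8.81 CPM in microglia and at 4.58, 41.1, 31.6 and 172 CPM in lipid-laden microglia. Its MDM levels lay at 0.101, 0.583 and 0 CPM, and at 5.87, 10.7 and 11.5 CPM with lipid load. Every pair rose, the microglial groups overlapped and the MDM groups did not. On average the log2 fold change was 4.52 (SE 0.55, adjusted p = 0.000989), 3.55 in microglia and 5.48 in MDM.

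For Lox and Col5a2 there were 0 counts in the 3 MDM libraries without lipid load and 135 and 80 counts in the 3 with it, so their MDM levels were at least 46.1-fold and 27.3-fold higher, set against 3 counts over the group. In the order of numbers 224, 221 and 718, the counts with lipid load were 22, 76 and 37 for Lox and 3, 7 and 70 for Col5a2. The bound of Col5a2 thus rests mostly on library 718. Both bounds cover counting error only. Fitted values of such genes depend on the fit and are not bounds. Without the libraries of number 718 the calls of Col5a2, Col1a2, Bgn, Fkbp14 and Syt4 were lost (adjusted p = 0.102, 0.0794, 0.110, 0.0752 and 0.124), as was that of Sh3bgrl2 (0.284), which held in 2 of 11 such fits. Without number 224, Fkbp14, Cdk18 and Sh3bgrl2 were lost (adjusted p = 0.0653, 0.0524 and 0.203), and Bgn lost its call also without number 221, at the threshold, and without the microglial pair of 718 (0.0544). Without the MDM pair of 718, Syt4 was lost (0.0657).

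The summed level of fibroblast markers moved with these genes, though not every marker did. A list of 10 (Dcn, Lum, Col3a1 and others), added after the collagens were seen, summed to 16.8 to 80.0 CPM in microglia, 38.2 to 372 CPM in lipid-laden microglia, 4.36 to 16.8 CPM in MDM and 18.7 to 51.0 CPM in lipid-laden MDM. The sum was higher with lipid load in each of the 7 pairs, but in MDM 224 only from 16.8 to 18.7 CPM. In that pair Col3a1 fell from 4.4 to 2.1 CPM and Postn from 8.8 to 3.0 CPM. Pi16 was lower on average (-1.32, not called), and Dpt and Mfap5 were not tested. Of the 8 tested, Dcn was called (log2 fold change 3.14, adjusted p = 0.0452) and Lum, which alone rose in every pair, was not (2.93, adjusted p = 0.0516). The part of fibroblast RNA in the matrix genes was not tested.

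Cd5l, a protein that macrophages secrete and that is a known target of LXR (ENSMUSG00000015854, chromosome 3, 87357881 to 87371073), was, with Gpnmb, 1 of 2 genes of this set that passed when the larger p of both origins was tested. It was at 55.5, 26.0, 27.5 and 103 CPM in microglia and at 117, 64.2, 127 and 262 CPM in lipid-laden microglia. MDM libraries were at 4.46, 3.03 and 15.3 CPM, and at 74.2, 23.9 and 143 CPM with lipid load. All pairs rose, with overlap in microglia only. The log2 fold change was 2.45 (SE 0.18, adjusted p = 8.03e-05), 1.48 in microglia and 3.43 in MDM, with a called difference (adjusted p = 0.0106).

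Of the genes singled out after their values were seen, Acod1, which makes itaconate, rose by 1.04 (SE 0.13, with 0.90 in microglia), Pla2g7, a phospholipase that inactivates platelet-activating factor, by 0.80 (SE 0.12, with 0.78) and the acute-phase gene Saa3 by 1.59 (SE 0.17, with 1.10). Each was called in both origins. Of 17 matrix proteases and inhibitors 2 rose in all pairs, Mmp12 at 1.55 (2.17 in microglia, 0.92 in MDM) and Adam8 at 1.14 (1.59 and 0.68), and none fell. The differences between origins for both were not called (adjusted p = 0.115 and 0.0886).

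**Figure D5:**
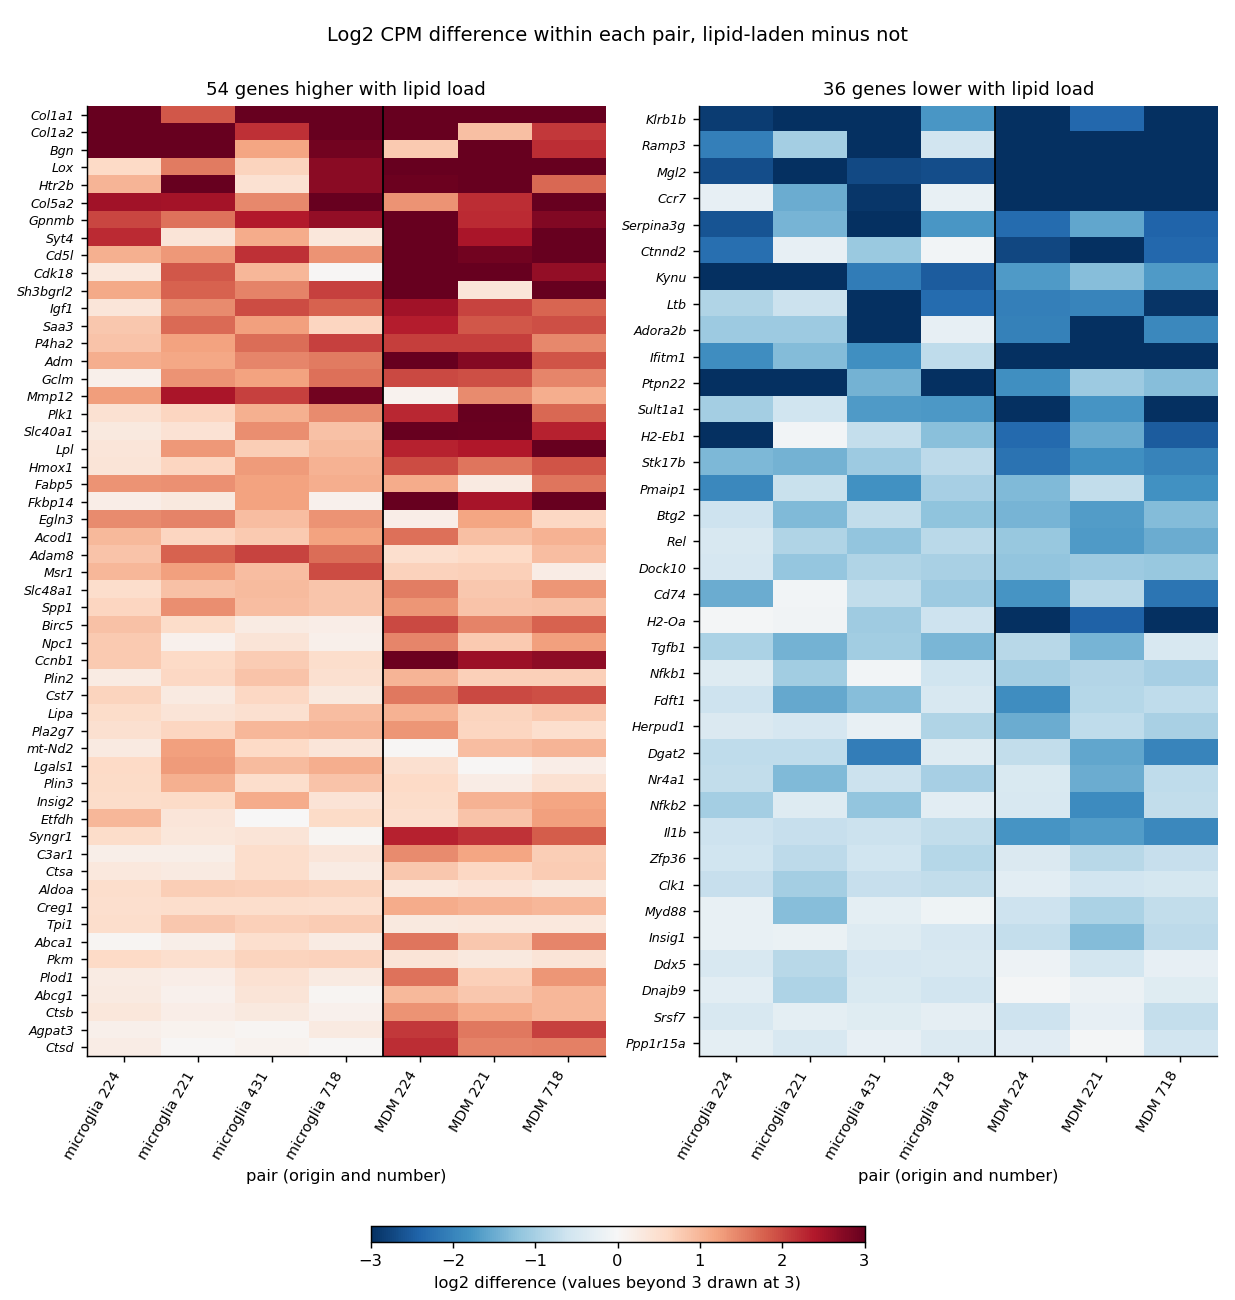
Log2 CPM difference within each of the 7 pairs (columns, microglial pairs left of the line) for the 54 higher and 36 lower genes described by rule or singled out, ordered by their median, in red for higher and blue for lower with lipid load. No cell crosses 0 against its side, and the MDM columns are darker for Agpat3, Ctsd, Syngr1, H2-Oa and Il1b.

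Among the 211 lower genes was Il1b, the gene of the cytokine interleukin-1 beta (ENSMUSG00000027398, chromosome 2, 129364570 to 129371139), with the smallest p of all genes tested. It was at 347, 417, 273 and 380 CPM in microglia and at 225, 260, 175 and 229 CPM in lipid-laden microglia. Among MDM libraries it was at 2042, 1909 and 2147 CPM, and at 598, 595 and 565 CPM with lipid load. The groups did not overlap in either origin, and lipid-laden MDM stayed above all microglia. Its log2 fold change was -1.23 (SE 0.06, adjusted p = 2.54e-05), -0.67 in microglia and -1.79 in MDM, with a called difference (adjusted p = 0.00109). It was 1 of 14 cytokines to fall in all pairs, and none rose.

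Of 20 genes of Toll-like receptors and NF-kB feedback, the NF-kB subunits Nfkb1 (-0.75) and Nfkb2 (-0.88) and the adaptor Myd88 (-0.62) fell in all pairs and none rose. In microglia these 3 were at -0.53, -0.72 and -0.47 and none was called (adjusted p = 0.143, 0.228 and 0.282). Rel, a further NF-kB subunit that was singled out, fell by 1.15 on the log2 scale (SE 0.10), with -0.85 in microglia and -1.45 in MDM. The calls of Nfkb2 and Myd88 were lost without number 224 (adjusted p = 0.0510 and 0.0618) and without number 718 (0.0612 and 0.0774). That of Nfkb2 was also lost without microglial pair 224 (0.0531), and that of Myd88 without MDM pair 221 (0.0581) or 718 (0.0643).

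Immediate early genes, which switch on within minutes of a stimulus, tissue dissociation included, numbered 24 on their list. Of these, 7 were called lower in all pairs (Atf3, Ier2, Btg2, Nr4a1, Dusp1, Zfp36 and Hspa1a) and 13 without that condition, none higher. Over all genes the shares called lower were 1.43% and 2.99%. The list median was -0.54 (-0.61 in microglia and -0.44 in MDM). Btg2, a brake on proliferation (ENSMUSG00000020423, chromosome 1, 134075170 to 134079120), was at 580, 478, 436 and 630 CPM in microglia and at 374, 192, 263 and 273 CPM in lipid-laden microglia. MDM held 1559, 1224 and 1250 CPM without and 593, 383 and 505 CPM with lipid load. No overlap was seen in either origin. Across both origins the log2 fold change was -1.22 (SE 0.10, adjusted p = 0.000139), -0.97 in microglia and -1.46 in MDM.

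Of 20 Clk kinases and SR splicing factors, 8 were called lower in all pairs, against 1.43% of all genes, and none higher. They were Clk1, Clk4, Srsf3, Srsf5, Srsf7, Tra2a, Tra2b and Ddx5. The median was -0.38 (-0.34 in microglia and -0.38 in MDM), and no member's difference between origins was called. Clk1, a kinase that phosphorylates SR proteins (ENSMUSG00000026034, chromosome 1, 58410189 to 58424066), was at 508, 492, 425 and 474 CPM in microglia and at 313, 243, 265 and 286 CPM in lipid-laden microglia. In MDM it was at 444, 370 and 468 CPM, and at 356, 249 and 325 CPM with lipid load. The groups were apart in both origins, by a wide gap in microglia and a narrow one in MDM. This gave a log2 fold change of -0.63 (SE 0.07, adjusted p = 0.000901), -0.78 in microglia and -0.47 in MDM. Srsf7 lost its call without number 224 (adjusted p = 0.0684) or 718 (0.0751).

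A motif was looked for upstream of the lower genes because many of them are known as rapidly induced genes. The cyclic AMP response element TGACGTCA, an 8-base palindrome that holds neither ACGTG nor GCGTG, was found within 250 bases upstream of the RefSeq start in 14 of 179 lower genes with a promoter (7.82%), in 2.53% of the higher genes and in 2.65% of all tested genes with one. The AP-1 site TGANTCA was found in 0.559% of the lower genes against 4.26% of all. Such matches are a description of the bases and were not tested. Sites of 8 of the 14 genes are shown, with the element in capitals, 5′ to 3′ on the strand of the gene, on build GRCm38.p6. They lie at chr1:134079289-134079346 (-), chr7:45526269-45526305 (-), chr3:65958250-65958292 (-), chr11:51263024-51263081 (+), chr6:49264053-49264104 (-), chr11:6528816-6528873 (-), chr4:141301163-141301220 (+) and chr6:146724841-146724898 (+), in the order printed.
Btg2: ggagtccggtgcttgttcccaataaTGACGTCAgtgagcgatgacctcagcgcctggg
Ppp1r15a: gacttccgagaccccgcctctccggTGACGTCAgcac
Ccnl1: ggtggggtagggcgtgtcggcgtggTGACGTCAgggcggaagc
Clk4: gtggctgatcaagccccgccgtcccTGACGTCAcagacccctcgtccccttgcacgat
Tra2a: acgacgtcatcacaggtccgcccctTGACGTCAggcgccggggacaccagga
Snhg15: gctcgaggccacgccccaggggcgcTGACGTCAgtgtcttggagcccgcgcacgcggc
Epha2: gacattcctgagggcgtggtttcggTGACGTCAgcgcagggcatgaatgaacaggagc
Stk38l: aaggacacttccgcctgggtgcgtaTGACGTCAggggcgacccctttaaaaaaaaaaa
Their log2 fold changes ran from -0.34 (Ppp1r15a, a subunit of the phosphatase that restores translation after stress) to -1.22 (Btg2). Between them lay the cyclin gene Ccnl1 (-0.61), the kinase genes Clk4 (-0.53) and Stk38l (-0.94), the splicing factor gene Tra2a (-0.51), the receptor gene Epha2 (-0.99) and the non-coding Snhg15 (-1.06). The RefSeq start of Clk4 lies 1384 bases from the end of the deposited gene model, and the others shown lie within 65 bases of it. In the stress response list of 24 genes, Herpud1 (-0.79), Dnajb9 (-0.38) and Ppp1r15a fell in all pairs. The calls of Dnajb9 and Ppp1r15a held in 2 and 6 of 11 fits that left out libraries. Dnajb9 was at -0.56 in microglia and -0.20 in MDM, and was called in neither origin by itself.

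Of 15 genes of MHC class II presentation, 11 were called lower and 3, H2-Eb1, H2-Oa and Cd74, with 1 direction in all pairs. Over all genes these shares were 2.99% and 1.43%. The list median of -1.31 was -0.14 in microglia and -1.91 in MDM. Cd74, the invariant chain of MHC class II, was at 386, 2658, 256 and 166 CPM in microglia and at 137, 2531, 154 and 77.5 CPM in lipid-laden microglia. Its MDM levels were 10420, 8863 and 7916 CPM without and 3055, 5014 and 1740 CPM with lipid load. Both microglial libraries of number 221 were far above the others, and their difference within the pair was small. The fitted log2 fold change was -1.22 (SE 0.18, adjusted p = 0.00306), -0.85 in microglia and -1.60 in MDM. H2-Eb1 lost its call without number 718 (adjusted p = 0.0884).

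Mgl2, a lectin of dendritic cells and some macrophages (ENSMUSG00000040950, chromosome 11, 70130329 to 70137550), was at 20.9, 5.14, 1.16 and 1.12 CPM in microglia and at 3.12, 0, 0 and 0 CPM in lipid-laden microglia. Its MDM levels lay at 1005, 1323 and 553 CPM, and at 113, 146 and 31.7 CPM with lipid load. The MDM groups were far apart, while the microglial ones overlapped through number 224. On average the log2 fold change was -3.45 (SE 0.29, adjusted p = 0.000164), -3.43 in microglia and -3.48 in MDM.

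Ifitm1, an interferon-induced membrane protein gene (ENSMUSG00000025491, chromosome 7, 140967221 to 140969825), was at 16.4, 9.76, 6.87 and 8.44 CPM in microglia and at 4.35, 3.84, 1.76 and 4.91 CPM in lipid-laden microglia. MDM libraries were at 870, 510 and 833 CPM, and at 75.8, 45.9 and 84.5 CPM with lipid load. Neither origin had overlapping groups. The log2 fold change was -2.45 (SE 0.13, adjusted p = 2.99e-05), -1.47 in microglia and -3.43 in MDM, with a called difference (adjusted p = 0.00266). None of the 28 genes of the type I interferon list moved in 1 direction in all pairs.

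Kynu, an enzyme of tryptophan breakdown (ENSMUSG00000026866, chromosome 2, 43555329 to 43682715), had 98 counts over microglia and 0 over lipid-laden microglia, at least 35.0-fold lower against 3 counts over the group. Among MDM libraries it was at 74.6, 103 and 62.9 CPM, and at 22.8, 42.5 and 19.2 CPM with lipid load (log2 fold change -1.56). Klrb1b, a lectin-like receptor of NK and dendritic cells, had 106 and 2 counts in the microglial groups, a ratio of 56.9 in favour of cells without lipid load (95% exact counting interval 15.4 to 476), and was at -3.47 in MDM. The groups of both genes were apart in both origins. The chemokine receptor Ccr7, which guides dendritic cells, was at -1.13 in microglia and -3.60 in MDM (adjusted p of the difference 0.0340). Ramp3 (-2.89), Sult1a1 (-2.05), Serpina3g (-2.63), Ptpn22 (-2.61), Ltb (-2.16), Ctnnd2 (-1.94) and Adora2b (-1.83) completed the 12 largest decreases, and in microglia these 7 ran from -0.94 (Ctnnd2) to -3.81 (Ptpn22), none of them called there. Ptpn22, Serpina3g and Ltb were called in 7, 7 and 5 of 11 fits that left out libraries, Adora2b in 9, and Ctnnd2 lost its call without number 224 (adjusted p = 0.0550).

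Dendritic cell markers were at low levels in microglia, where Clec9a, Cd209a and Dpp4 were at 0 in lipid-laden microglia and the list's sum, 209 to 277 CPM without and 234 to 301 CPM with lipid load, overlapped between the groups. Most of that sum was Cadm1, at 211 CPM on average without and 252 CPM with lipid load. Of the 12 genes on the list, 6 were called lower and 1, Cadm1, higher. The part of dendritic cell RNA in these decreases was not tested.

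Stk17b, a kinase linked to cell death (ENSMUSG00000026094, chromosome 1, 53755506 to 53785224), was at 131, 100, 80.5 and 109 CPM in microglia and at 51.6, 37.4, 37.8 and 63.6 CPM in lipid-laden microglia. In MDM it was at 1089, 610 and 726 CPM, and at 235, 170 and 181 CPM with lipid load. The groups did not overlap in either origin. Its log2 fold change was -1.59 (SE 0.10, adjusted p = 3.64e-05), -1.16 in microglia and -2.02 in MDM, with a called difference (adjusted p = 0.0296). Dock10, an activator of small GTPases (ENSMUSG00000038608, chromosome 1, 80501073 to 80758527), was at 163, 122, 138 and 118 CPM in microglia and at 115, 54.9, 74.1 and 59.7 CPM with lipid load, and its MDM levels of 314, 265 and 252 CPM became 139, 124 and 114 CPM. Its groups did not overlap either, and its log2 fold change was -1.01 (SE 0.10, adjusted p = 0.000301), -0.88 in microglia and -1.14 in MDM. Pmaip1, the gene of the death-promoting protein NOXA, fell by 1.33 on the log2 scale, with -1.35 in microglia and -1.30 in MDM. Stk17b, Dock10 and Pmaip1 were singled out after their values were seen.

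No gene of 30 cytosolic ribosomal proteins was called by edgeR or kept 1 direction, and 5 had an unadjusted p under 0.05 (list median -0.09, with 0.17 in microglia and -0.34 in MDM). None of 32 nuclear respiratory chain genes was called by edgeR, with 1 at an unadjusted p under 0.05 (median 0.09), while 3 of 10 mitochondrially encoded genes were called higher and none lower (median 0.42, with 0.45 in microglia and 0.43 in MDM). Of these, mt-Nd2 also rose in all pairs (0.64), a call held in 5 of 11 fits that left out libraries. Of 24 fatty acid oxidation genes 1, Etfdh, rose (0.67, called in 8 of those 11 fits), and of 22 chemokines and 6 glucose and monocarboxylate transporters none met both conditions. Of 20 genes of alternative activation the galectin gene Lgals1 rose (0.61) and the adenosine receptor gene Adora2b fell. Lgals1 was at 0.98 in microglia and 0.24 in MDM, where it was not called by itself and the groups overlapped. Its shared call was lost without number 718 (adjusted p = 0.0694). Of 22 Fc, complement and purinergic receptors, 10 were called higher on average and 2 lower, with a median of -0.06 in microglia and 0.85 in MDM and a called difference between origins for 15. The complement receptor gene C3ar1 (0.71, with 0.31 in microglia) alone was called with 1 direction in every pair. Homeostatic microglia genes were called higher for 16 of 20 on average, with a median of 1.83 in MDM and -0.37 in microglia, and none rose in all pairs.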

How the data were processed

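The authors deposited whole-number read counts per gene, not normalized, per the file headers, with mm10 as the build in the submitters' processing notes. How reads were aligned and counted, and whether strand was used, is not stated, so genes with antisense partners or near-identical copies (H2, Klr, Ifitm, Mgl2, Hspa1a, Gapdh) are uncertain. Gene coordinates are those of the deposited table. Libraries were grouped by title. Genes were kept by filterByExpr (minimum count 10, total 15; 14712 of 55486), scaled by TMM and tested with edgeR 4.0.16 (quasi-likelihood, Benjamini-Hochberg) in R 4.3.3. Direction came from log2 CPM with a prior count of 2. SE is the fold change over the root of the test statistic. On data simulated for the shared effect over 14712 genes, 73 of 100 genes changed by log2 1 and 96 of 100 by log2 2 were called, with 5 of 14512 unchanged genes.

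Same-numbered microglial libraries deviated together (r = 0.126 to 0.257 across genes, other numbers at most 0.0943), MDM libraries less (0.0547 to 0.114, at most 0.0200). The block was kept because the comparison is defined by pairs. Members, 29 function and 12 marker lists and tests were chosen with earlier results of these data known. Named by rule were the 12 largest called increases and decreases above a mean log2 CPM of 3 and up to 3 called members per function list with the smallest p (80 genes); 10 more were singled out. Alternatives were other scaling, no filter, DESeq2, limma-voom, other blocks and leaving libraries out.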

Additional observations from a re-analysis of the deposited data

Results flagged for a closer look

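Among 90 genes, 270 sets of values (7 pair differences, and the CPM of each microglial group of 4) were checked for a value far from the others; chance alone marks about 1 in 20. The check marked 3 pair differences and 22 library levels. In pair differences, Fabp5 stood apart in MDM 221 (0.28, others 1.09 to 1.60), Gclm in microglia 224 (0.15, others 1.21 to 1.99) and Dock10 in microglia 224 (-0.51, others -1.18 to -0.90).

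Libraries of number 221 stood apart most often. In microglia 221 without lipid load, Cd74 was at 2660 CPM (others 166 to 386) and H2-Eb1 at 780 CPM (32.5 to 113), and with lipid load Cd74 was at 2530 CPM (77.5 to 154) and H2-Eb1 at 732 CPM (9.93 to 26.9). Without lipid load the same number was high for Col5a2 (8.74 CPM), Msr1 (179 CPM) and Gclm (85.3 CPM), and low for Agpat3 (44.1 CPM) and Cst7 (187 CPM). With lipid load it was high for Fkbp14 (33.9 CPM), Cdk18 (57.8 CPM) and Serpina3g (2.53 CPM), and low for Plod1 (532 CPM). Lipid-laden microglia 224 was low for Pkm (2130 CPM) and Tpi1 (1030 CPM), and held the few counts of Klrb1b (0.223 CPM) and Mgl2 (3.12 CPM), while non-lipid-laden 224 was high for Dnajb9 (369 CPM). Number 431 was low without lipid load for Abca1 (439 CPM) and Hmox1 (1060 CPM), and high with it for Ptpn22 (2.79 CPM). Ptpn22 was low in microglia 718 without lipid load (1.86 CPM).

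The MDM effect minus the microglial effect was called for 25 of the 90 genes, as log2 differences. Among higher genes it was 7.04 for Lox, 4.45 for Fkbp14, 2.52 for Slc40a1, 2.08 for Ccnb1, 1.95 for Cd5l, 1.86 for Lpl, 1.80 for Agpat3, 1.76 for Syngr1, 1.64 for Ctsd, 1.38 for Cst7, 1.33 for Adm, 1.29 for Birc5, 1.05 for Abca1, 0.97 for Hmox1, 0.93 for Plod1, 0.92 for Ctsb, 0.80 for C3ar1, 0.71 for Abcg1 and 0.53 for Creg1, so the increase was larger in MDM. Among lower genes it was -2.47 for Ccr7, -2.44 for H2-Oa, -1.96 for Ifitm1, -1.12 for Il1b and -0.86 for Stk17b, a larger decrease in MDM, and 6.05 for Kynu, whose decrease was larger in microglia. Values of Lox and Kynu rest on a group with 0 counts.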

How the results depend on the processing

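In order, counts are genes called higher, called lower, higher and lower with the same direction in all pairs, and called for the difference between origins (688, 440, 293, 211 and 719 as reported). With no replicate block they were 436, 211, 187, 104 and 351, and with MDM 431 added to that fit 449, 300, 194, 140 and 375. DESeq2 with the block gave 1151, 927, 379, 349 and 1649. A fit with the same lipid-load coefficient for both origins, in which each pair weighed the same, gave 83, 101, 81 and 77. In that fit a difference between origins counts as spread. It still called 158 of the 504 genes. Testing the larger p of both origins gave 6, 8, 6 and 6. The cause was not tested. Leaving out libraries gave 253 to 614, 166 to 386, 141 to 336, 112 to 234 and 234 to 739. The lowest counts came without number 718. Without number 224 they were 329, 183, 189, 130 and 355. Without MDM pair 224, 226 genes were lower, 138 of them in all pairs, and 411 differed between origins. Without MDM pair 718 the counts were 428, 219, 208, 129 and 380, and without microglial pair 718, 419 were higher and 471 differed. Without number 221, whose microglial libraries were high in MHC class II genes, they were 614, 343, 320, 224 and 636. Other scaling, no filter, limma-voom, a block by number only and correlated pairs kept every count within 1.5 times. No named gene reversed under any of these. Of the 504 genes, 183 were called in all 11 fits that left out libraries (107 higher, 76 lower), 279 with no replicate block and 12 by the larger p. The fits without number 431 and without microglial pair 431 left out the same libraries. Every count out of 11 therefore holds that fit under both labels. Arms of 2 or 3 pairs limit the precision.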
